A study of Homo sapiens with 10 samples.

Results

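Keratins are the intermediate filament proteins of epithelial cells. A type I and a type II keratin pair to form the filament, and the pair a cell uses marks its kind of epithelium. Simple, one-layered epithelia and the luminal cells of the prostate use KRT8 with KRT18, often with KRT19 or KRT7, whereas the basal layer of stratified epithelia and of the prostate uses KRT5 with KRT14. Other members serve the upper layers of skin and the hair follicle.

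The keratin family was taken here as all genes with 1 annotated symbol made of KRT, a number and an optional letter. It held 44 of the 19735 genes on the array, 23 of type I, 20 of type II and the keratin-like KRT222. They were measured by 56 probe sets, and 9 genes had more than 1. The probe set with the highest mean stood for a gene. Annotations naming several genes, and keratins not on this list, such as KRT6A and KRT17, were not analysed here.

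The 10 Affymetrix arrays measured total RNA of 2 human prostate cancer lines, DU145, from a brain metastasis, and LNCaP, from a lymph node metastasis. PGK cells carried a control vector in which the ubiquitous PGK promoter drives GFP and puromycin resistance. EOS cells carried the same genes behind OCT4 and SOX2 enhancers and were grown in puromycin for a few weeks to enrich resistant cells. Each line had PGK arrays 1 and 2, EOS arrays 1 and 2, and a single array of ribavirin-treated EOS 2 cells. Ribavirin is a guanosine analogue, and the labels give neither its dose nor its time. Every group therefore consists of transduced cells of a single line, and no untransduced cells were among the samples. Whether a line's arrays 1 and 2 are separate cultures is not stated, and the p-values cover array-to-array spread that could be technical.

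Arrays numbered 1 were deposited with a 2% trimmed mean of 500 and those numbered 2 with 96.56 to 126.5. The ratio of 3′ to 5′ ACTB control signal, a standard check of RNA quality, was 1.236 to 1.511 in number 1 and 3.204 to 3.993 in number 2. Levels below are log2(intensity + 16) after each array was scaled to a trimmed mean of 500, so that a signal of 0 stands at 4 and changes of dim genes are understated. The array medians then lay between 6.12 and 6.45. The line labels were checked on luminal prostate markers: all 6 of the 6 measured, KLK3 and KLK2 among them, were higher in LNCaP PGK cells.

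Few keratins stood above the array median, and those that did were mostly the simple epithelial ones. In DU145 5 of 44 keratins were above it in all 5 arrays (11.4%, against 56% of all genes on the array): KRT8, KRT18, KRT7, KRT80 and KRT10. In LNCaP 4 of 44 were (9.09%, against 53.8% of all genes): KRT8, KRT18, KRT19 and KRT10. The 3 shared by both lines were KRT8, KRT18 and KRT10. Another 24 keratins lay below the median in all 10 arrays, at levels of 4.02 to 6.30 with a median of 4.55. The array median is a yardstick and not a test of detection.

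By class, 4 of the 5 simple epithelial keratins were above the median in all arrays of a line, and the remaining one, KRT20 of gut epithelium, was below it in all 10. None of the 3 basal layer keratins was, and their levels were 4.11 to 6.46. KRT14 and KRT15 were below the median in all arrays, while KRT5 passed it in 1, DU145 ribavirin. Of 13 keratins of suprabasal, stratified and wound epithelia only KRT10 stood above the median throughout, and 8 were below it in all 10 arrays. None of the 19 hair and inner root sheath keratins was above the median in all arrays of a line, and 11 were below it everywhere. KRT80, a widely expressed epithelial keratin, stood in the last class with KRT23, KRT79 and KRT222. Just outside the rule lay KRT9 and KRT85, each above the median in 4 of 5 DU145 arrays.

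**Figure D1:**
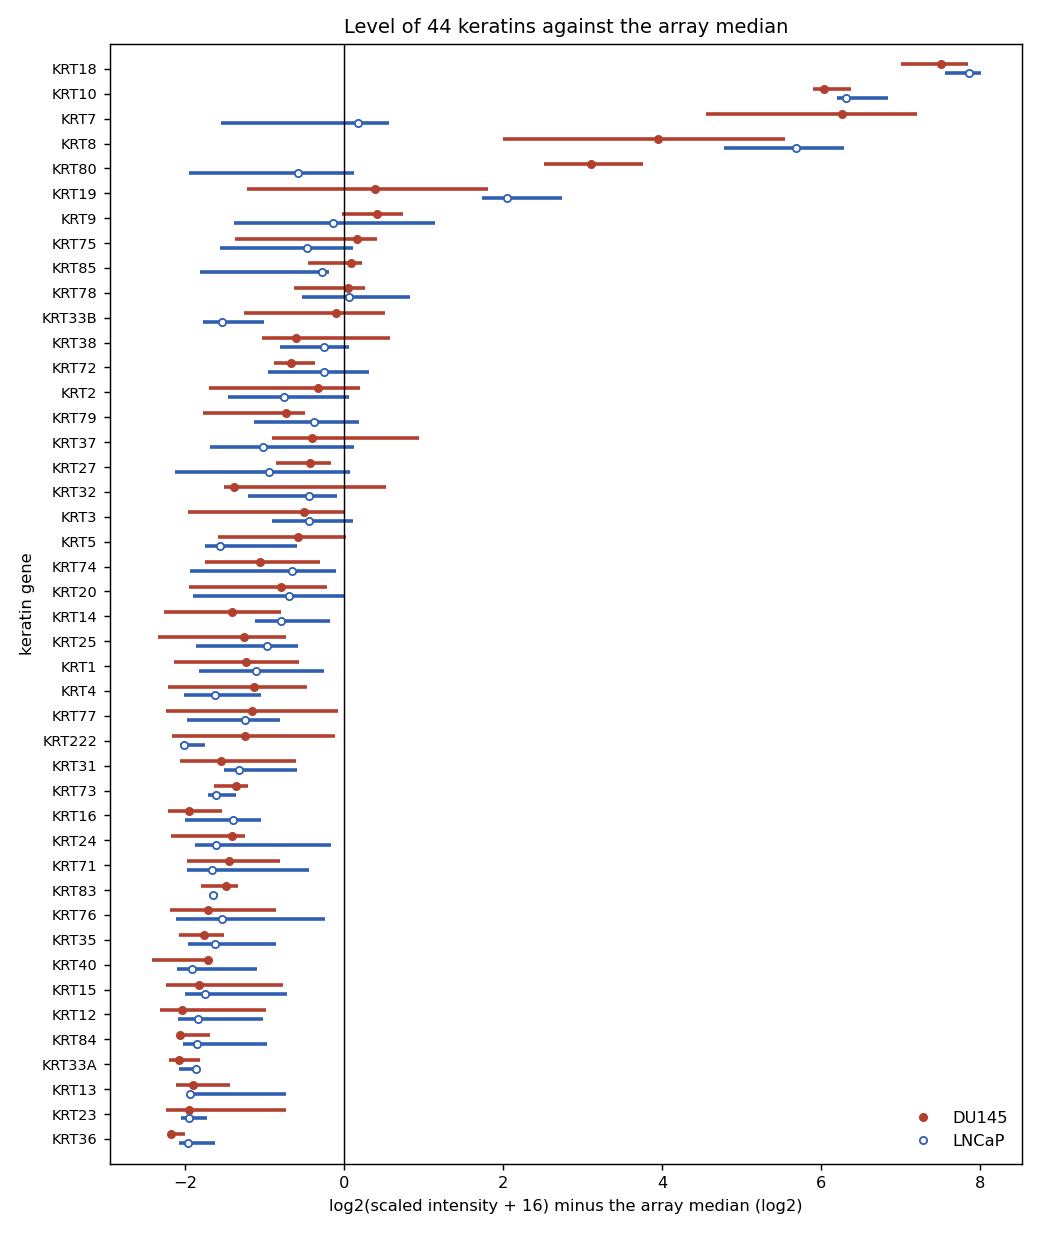
Each keratin's level minus the array median (log2, x axis) in DU145 (filled points) and LNCaP (open points), with the median of 5 arrays as a point and the lowest to highest array as a line. KRT18, KRT10 and KRT8 lie right of 0 in both lines, KRT7 and KRT80 in DU145 and KRT19 in LNCaP, and 24 keratins lie left of 0 in all 10 arrays.

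KRT8 and KRT18, the partners of the simple epithelial filament, were high in both lines. KRT18 had levels of 14.15 (PGK 1), 13.78 (EOS 1), 13.77 (PGK 2), 13.51 (EOS 2) and 13.45 (ribavirin) in DU145, and of 13.92, 14.09, 14.13, 13.86 and 14.15 in LNCaP in the same order. The lines overlapped, and all 10 values lay within 0.7 of each other on the log2 scale. KRT8 had levels of 11.84, 10.65, 10.13, 8.42 and 9.02 in DU145 and of 12.14, 12.53, 10.89, 11.15 and 11.82 in LNCaP. Its spread among arrays of 1 line was thus far wider than that of its partner, and in DU145 the PGK 1 array was highest and the EOS 2 array lowest. KRT8, KRT18, KRT10 and KRT7 were read by probe sets whose suffix (x or s) marks probes that can bind related sequences, and KRT8 and KRT18 are known for many processed pseudogenes, so part of the signal of KRT8 and KRT18 may not be theirs.

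KRT10, the type I keratin of the upper skin layers, was at 12.33 to 12.57 in DU145 and 12.44 to 12.95 in LNCaP by the probe set used. Another of its probe sets spread more widely, from 11.47 to 12.35 in DU145 and from 11.73 to 12.39 in LNCaP, with EOS 2 lowest in each line. KRT1, the skin partner of KRT10, was below the median in all 10 arrays. The keratin linker gene DSP, whose product ties keratins to desmosomes, was above the median in all 10 arrays, at 11.71 to 13.42, and DSG2, the desmoglein of simple epithelia, at 12.50 to 13.15. The skin desmogleins DSG1 and DSG3 were below the median in all 10.

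**Figure D2:**
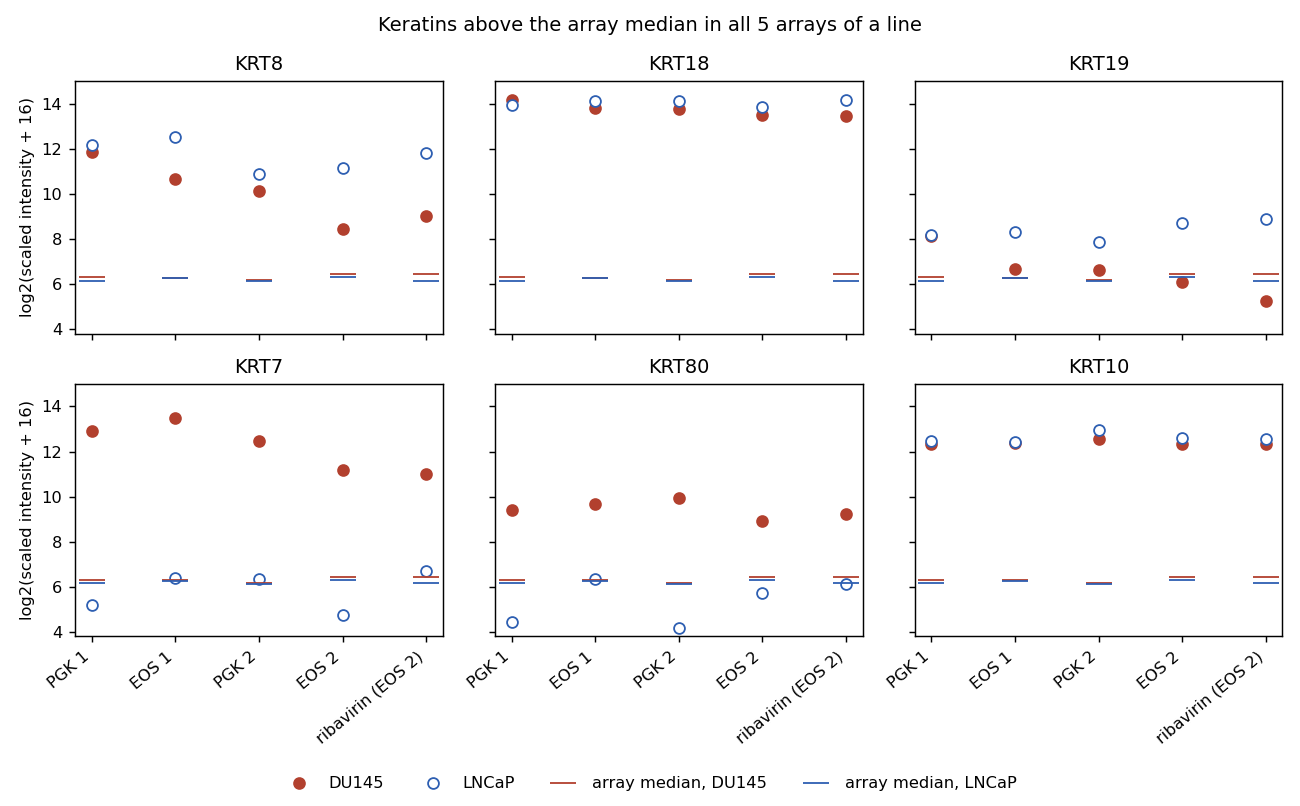
Level of 6 keratins in each array, as log2(scaled intensity + 16), for DU145 (filled) and LNCaP (open), with the array median as a dash. KRT7 and KRT80 separate the lines in every state, KRT18 and KRT10 overlap or nearly so, and KRT8 is lower in arrays numbered 2 than in those numbered 1 within each state.

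Of the 14 keratins tested, KRT7 and KRT80 were the ones called different between the lines. KRT7, a type II keratin of simple and glandular epithelia, had levels of 12.93, 13.49, 12.45, 11.19 and 10.995 in DU145 (PGK 1, EOS 1, PGK 2, EOS 2, ribavirin), and of 5.18, 6.41, 6.33, 4.75 and 6.71 in LNCaP. The lines did not overlap, and LNCaP lay around the array median of 6.12 to 6.30. Among PGK controls LNCaP minus DU145 was -6.93 ± 0.78 log2 (SE, 2 arrays per line, from the spread shared by all groups; limma adjusted p = 0.00031). KRT80 had levels of 9.40, 9.66, 9.95, 8.93 and 9.21 in DU145 and of 4.45, 6.36, 4.16, 5.73 and 6.10 in LNCaP, again with no overlap. It differed by -5.37 ± 0.39 (limma adjusted p = 3.29e-05). The size of both differences depends on the pseudocount, and KRT80 in LNCaP PGK lay near the floor of 4. With 1 and 64 in place of 16 KRT7 differed by -7.47 and -6.00, and KRT80 by -7.48 and -3.68. On the values as deposited, unscaled, KRT80 differed by -4.48 and was not called (adjusted p = 0.214).

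Of the 44 keratins 14 passed the filter on dim genes, which asked for a level above the array median in at least 2 of 10 arrays. In the line comparison 2 of these 14 were called lower in LNCaP and 0 higher, where 17.9% and 15.2% of all 14313 tested genes were called. The share of keratins called lower is near that background, so the count itself is no feature of the family. The 14 had a median difference of -0.17, against -0.04 for all genes.

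KRT7 had 3 other probe sets, and they did not show the difference. One of them was above the median in all 10 arrays, at 6.39 to 7.54, and differed between the PGK controls by -0.01. The others, which carry the same s suffix as the one used, differed by 0.38 and -0.07. They were below the median everywhere, at 4.15 to 6.22, and probe sets this dim can show little of a difference. The difference of KRT7 between the lines thus rests on 1 of 4 probe sets, the one with the highest mean, which can bind related sequences. Over the mean of the KRT7 probe sets that passed the filter on dim genes the difference was -3.47 (limma adjusted p = 0.000677). The 2 other probe sets of KRT10 differed by 0.28 and 0.29, close to 0.26 for the one used.

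KRT19, a small type I keratin of simple epithelia, was above the median in all LNCaP arrays and in 3 of 5 DU145 arrays. Its levels were 8.11, 6.66, 6.62, 6.09 and 5.22 in DU145 and 8.17, 8.28, 7.85, 8.71 and 8.89 in LNCaP. The PGK 1 arrays of the lines were nearly equal, whereas the other 4 DU145 arrays lay below all 5 LNCaP arrays. Among PGK controls LNCaP minus DU145 was 0.64 ± 0.49 (limma adjusted p = 0.357). A second KRT19 probe set was below the median in all 10 arrays and differed by -0.42, in the other direction. Averaged over PGK and EOS cells the line difference of the probe set used was 1.38 (limma adjusted p = 0.0109). In that setting 6619 of all 14313 genes were called, in either direction. KRT8, KRT18 and KRT10 differed by 0.53 ± 0.84, 0.06 ± 0.18 and 0.26 ± 0.20 and were not called. With array number as a block the 0.53 of KRT8 was called (limma adjusted p = 0.0401), as were 20.7% of all genes in that direction. That value turned to -0.33 without DU145 PGK 2 and to -0.09 without LNCaP PGK 1, and the 0.64 of KRT19 turned to -0.10 without DU145 PGK 2.

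Genes whose products work with keratins also differed between the lines. Of 15 tested desmosome and keratin linker genes 5 were called higher and 3 lower in LNCaP (15.2% and 17.9% of all genes). EPPK1, epiplakin, was at 4.48 ± 0.59 and JUP, plakoglobin, at 1.55 ± 0.27. Lower in LNCaP were DST, a linker of hemidesmosomes, at -2.97 ± 0.29 and PPL, periplakin, at -1.51 ± 0.24. Of 11 other intermediate filament genes 7 were called lower and 0 higher, among them VIM of mesenchymal cells at -3.45 ± 0.49, SYNM at -3.29 ± 0.36 and the lamin LMNA at -2.20 ± 0.20. Of 15 regulators of keratin genes 9 were called higher and 3 lower. GRHL2, an activator of epithelial genes, was at 6.27 ± 0.24 and the ETS factor EHF at 10.60 ± 0.28, while the repressor ZEB1 was at -6.06 ± 0.40. Of 7 tested genes on the cornified envelope list 1 was called higher, CSTA at 3.85 ± 0.93, and 1 lower, SFN (stratifin) at -4.59 ± 0.17. The list also holds genes whose products are not parts of the envelope, SFN among them.

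Of the 6 high keratins 4 lie in the keratin cluster of chromosome 12. In the RefSeq annotation of GRCh38 the 27 coding keratin genes of chromosome 12 follow each other with 0 other coding genes between them, from KRT80 to KRT18, and 21 of them were measured here. KRT80 and KRT7 are the first and the next coding genes at one end, and KRT8 and KRT18 are neighbours at the other end. KRT18 is the only type I member there. The 17 measured keratins between these ends included no gene above the array median in all arrays of a line. On chromosome 17, which held 23 members, KRT10 lies between KRT28 and KRT12, and KRT19 between KRT15 and KRT9.

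**Figure D3:**
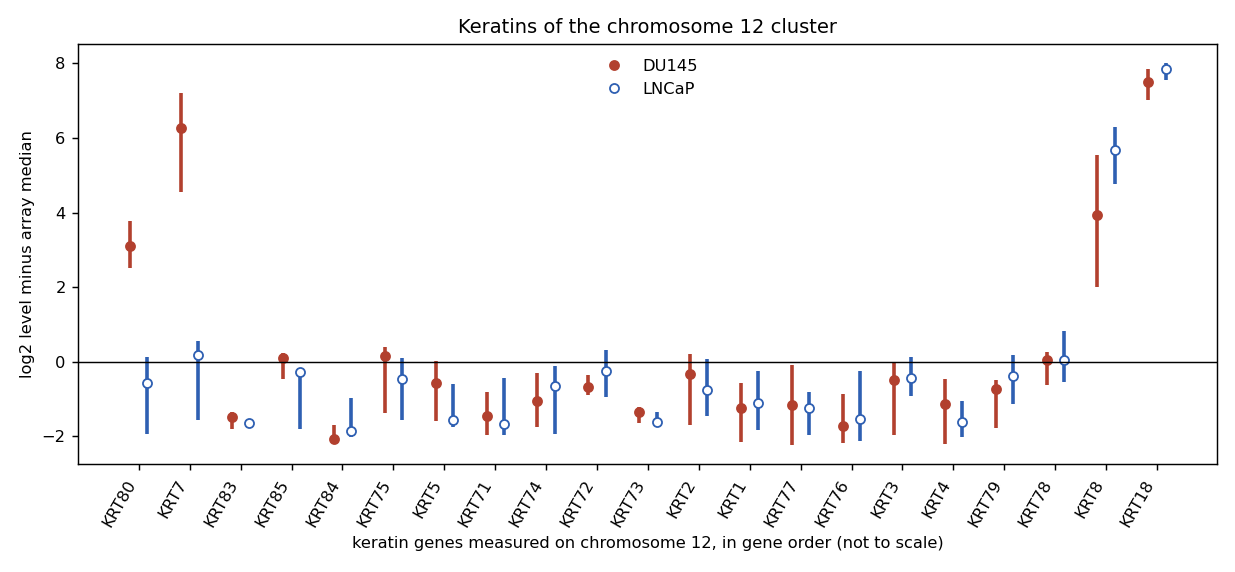
Level minus the array median (log2, y axis) of the 21 measured keratins of chromosome 12 in gene order, with the median of 5 arrays as a point and the lowest to highest array as a line. KRT80 and KRT7 at one end are high in DU145 (filled), KRT8 and KRT18 at the other end are high in both lines, and the 17 between stay near or below 0.

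Promoter windows, the 250 bases before the annotated gene start, were matched for 29 of the 44 keratins in RefSeq (GRCh38.p14). A TATA box, TATAAA on the gene strand within 20 to 40 bases before the start, was found in 13 of the 29 (44.8%), against 2.5% of 27305 promoters of the same length. Counted on both strands over the whole window, TATAAA was in 51.7% of the 29 and 11.1% of all, CCAAT in 41.4% and 33%, and GGGCGG (the GC box) in 13.8% and 42.3%. The OCT4 octamer ATGCAAAT was in 0 of the 29 and 1.66% of all, and the AP-1 letters TGANTCA in 0 and 6.6%. Keratin genes arose by duplication and share sequence, so the 29 windows are not independent. Printed here, with TATAAA and CCAAT in capitals on either strand, are a window of a high keratin that has a TATA box (KRT10, chr17:40822615-40822864, minus strand) and one of a high keratin with no match (KRT8, chr12:52926470-52926719, minus strand). They stand beside a low keratin with a match (KRT24, chr17:40703753-40704002, minus strand) and the basal keratin KRT5 with no exact match (chr12:52520395-52520644, minus strand). The KRT5 window holds gataaa within 20 to 40 bases before the start, which differs from TATAAA in its first letter and was not counted.
KRT10: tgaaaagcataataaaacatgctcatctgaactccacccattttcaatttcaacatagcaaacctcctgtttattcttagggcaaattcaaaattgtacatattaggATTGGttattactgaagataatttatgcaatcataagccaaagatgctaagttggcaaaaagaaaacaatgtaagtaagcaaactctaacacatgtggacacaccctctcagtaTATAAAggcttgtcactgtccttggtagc
KRT8: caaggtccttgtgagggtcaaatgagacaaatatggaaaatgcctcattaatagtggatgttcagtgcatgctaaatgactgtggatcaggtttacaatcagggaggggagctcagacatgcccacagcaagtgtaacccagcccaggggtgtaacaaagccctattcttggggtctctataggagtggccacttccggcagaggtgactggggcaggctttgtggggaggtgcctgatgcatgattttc
KRT24: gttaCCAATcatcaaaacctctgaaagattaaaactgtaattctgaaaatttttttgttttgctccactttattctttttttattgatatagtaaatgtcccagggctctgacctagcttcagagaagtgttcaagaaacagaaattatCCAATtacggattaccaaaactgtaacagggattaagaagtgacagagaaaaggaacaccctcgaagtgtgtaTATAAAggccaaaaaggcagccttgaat
KRT5: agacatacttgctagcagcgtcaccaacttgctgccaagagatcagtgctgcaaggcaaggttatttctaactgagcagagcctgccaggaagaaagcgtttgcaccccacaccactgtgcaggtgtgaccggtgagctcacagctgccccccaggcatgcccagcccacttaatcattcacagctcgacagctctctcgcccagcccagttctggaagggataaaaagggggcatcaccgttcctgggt
Of the 13 keratins with a TATA box near the start KRT10 alone was above the median in all arrays of a line, and of the 16 others KRT8 alone. Of the 6 high keratins these 2 had a window, and KRT7, KRT18, KRT19 and KRT80 were not analysed here for motifs. A match is a run of letters and was not tested as a site. Only the window before the annotated gene start was used, for KRT8 too, and other starts of a gene were not analysed here.

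EOS selection was not accompanied by a called change in any keratin. In DU145 limma called 0 of the 14 tested keratins and 0% of all genes, and at an unadjusted p under 0.05 it had 0 keratins (1.59% of all genes). In LNCaP it called 0 keratins and 0% of all genes, with 2 keratins, KRT80 and KRT37, at an unadjusted p under 0.05 (4.16% of all genes). KRT37 had passed the filter on dim genes only through EOS and ribavirin arrays, so nothing is read from this count. With array number as a block it again called 0 in each line.

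In DU145 the 4 tested simple epithelial keratins all had values below 0, and so did 11 of all 14 tested keratins. The median of the 14 was -0.16, against -0.02 for all genes. KRT8 differed by -1.19 in pair 1 and -1.72 in pair 2, or -1.45 ± 0.84 (limma adjusted p = 1). The block left the value at -1.45 with a smaller error of 0.18 and an unadjusted p = 3.66e-05, which over all genes gave a limma adjusted p = 0.222. Its partner KRT18 differed by -0.37 and -0.27 in the pairs, KRT19 by -1.45 and -0.53, and KRT7 by 0.56 and -1.26. KRT7 thus went in opposite directions in the pairs. In LNCaP the same genes had no common direction, with KRT8 at 0.39 and 0.26 and KRT18 at 0.17 and -0.26. For the difference of the EOS effect between the lines 0 keratins and 0% of all genes were called, with 1 keratin, KRT80, at an unadjusted p under 0.05 (3.25% of all genes). It was 1.78 ± 1.18 for KRT8 and 1.48 ± 0.69 for KRT19, neither of them called (limma adjusted p = 1 for each).

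In LNCaP the largest of the 14 keratin values was that of KRT80. It was 4.45 and 4.16 in the PGK arrays and 6.36 and 5.73 in the EOS arrays, so the groups did not overlap, and the ribavirin array stood at 6.10. The difference was 1.73 ± 0.39 (limma adjusted p = 0.999, unadjusted p = 0.00194). ENO2, an enolase and 1 of the 8 measured neuroendocrine markers, was at 7.29 and 5.86 in LNCaP PGK and 9.94 and 9.46 in EOS cells. The summed scaled intensity of the 8 was 314.2 and 130.6 in PGK, 1086 and 785.5 in EOS and 815.5 in ribavirin cells. NCAM1 was at 6.16 and 5.52 in LNCaP PGK and 6.03 and 5.95 in EOS cells. CHGA, CHGB, SYP, SCG2, SCG3 and INSM1 were below the median in all 10 arrays, so the 8 did not move as a set. Their part in the KRT80 values was not tested. Of the LNCaP values of KRT80 EOS 1 alone lay above its array median, of 6.24, and the EOS difference of KRT80 was 3.49 with a pseudocount of 1 and 0.76 with 64. In DU145 KRT80 differed by 0.26 and -1.02 in the pairs. The lines differed in this effect by 2.11 ± 0.56 (limma adjusted p = 1). KRT37, a hair keratin, was 5.12 and 4.43 in LNCaP PGK and 6.36 and 6.12 in EOS cells, and 4.64 in ribavirin cells. It passed the filter on dim genes only through EOS arrays and the DU145 ribavirin array (DU145 EOS 2, DU145 ribavirin and LNCaP EOS 1), so its EOS difference is given as levels with no test. Over the mean of both lines KRT80 was at 0.68 ± 0.28 (limma adjusted p = 1), with 0 keratins and 0% of all genes called. At an unadjusted p under 0.05 (2.05% of all genes) stood KRT80 and KRT37, the second selected by the filter as described.

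Other listed genes were not called in the EOS comparisons either. In DU145 or LNCaP 0 of 15 linker genes, 0 of 11 other intermediate filament genes and 0 of 15 regulators passed, and 0 of 7 on the cornified envelope list. In DU145 PPL was at -0.58 and JUP at -0.56. In LNCaP KLF5, a regulator of epithelial genes, was at -1.25 and SFN at 0.64. The signal of fibroblast markers also differed among the DU145 arrays. All 7 were measured, 1 of them, COL1A1, above the median in all 5 arrays, and their summed scaled intensity was 468.5 and 780.2 in PGK 1 and 2, 447.3 and 2855 in EOS 1 and 2 and 3199 in ribavirin cells. From DU145 PGK 1 to EOS 1 KRT8 differed by -1.19 and KRT19 by -1.45, and from PGK 2 to EOS 2 by -1.72 and -0.53. In LNCaP the sum was 337.1 to 843.8. In the arrays with the high sums POSTN was at 10.77 and 10.99 and COL3A1 at 9.01 and 8.63 (DU145 EOS 2 and ribavirin). The fibroblast genes COL1A2, PDGFRB, DCN and LUM were below the median in all 5 DU145 arrays. In bulk RNA fewer cells of a type and less RNA per cell cannot be told apart, and the part of these markers in the keratin values was not tested.

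Ribavirin, with 1 array in each line, gave no called keratin. limma called 0 of 14 keratins and 0% of all genes in DU145, in LNCaP and over their mean, with 1 keratin at an unadjusted p under 0.05 in each (1.75%, 2.03% and 1.77% of all genes). The single arrays were assumed to vary like the other groups. Against the EOS 2 array, from which the treated cells came, KRT8 was higher by 0.60 in DU145 and 0.67 in LNCaP. Against the mean of both EOS arrays it was at -0.52 ± 1.03 and -0.02 ± 1.03, so that the direction turns with the control used. KRT7 differed from EOS 2 by -0.20 and 1.97, KRT19 by -0.87 and 0.18, KRT18 by -0.05 and 0.29, and KRT80 by 0.27 and 0.38. KRT9, a keratin of palm and sole skin, was 7.28 in LNCaP ribavirin cells against 6.10 and 4.91 in EOS 1 and 2 (1.78 ± 0.72, limma adjusted p = 0.999). In DU145 KRT38, a hair keratin, was 7.02 against 5.67 and 5.49 in EOS 1 and 2. KRT38 passed the filter only through that ribavirin array and LNCaP EOS 1, so its values are a description with no test, and nothing is read from the count it enters. Both genes lie near the array median.

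Array number, which is no condition of the study, gave the one keratin call outside the line comparison, that of KRT8. KRT8 was lower in number 2 in all 4 pairs of like cells, with differences of -1.71 (PGK) and -2.24 (EOS) in DU145 and -1.25 and -1.38 in LNCaP. Fitted over PGK and EOS, number 2 minus number 1 was -1.31 ± 0.18 in LNCaP (limma adjusted p = 0.00639) and -1.98 ± 0.18 in DU145 (limma adjusted p = 0.0552, the smallest of all 14313 genes there). In LNCaP 1 of 14 keratins was called lower, where 2.85% of all genes were, and 0 were called higher (3.6% of all genes). At an unadjusted p under 0.05 LNCaP had 2 keratins, KRT8 and KRT9 (23.7% of all genes). Without the block the LNCaP value was not called (limma adjusted p = 0.149). In DU145 limma called 0 keratins and 0% of all genes, with 3 keratins, KRT8, KRT18 and KRT19, at an unadjusted p under 0.05 (7.78% of all genes). The DU145 call of KRT8 depends on the arrays and the fit: it was called without DU145 PGK 1 (-2.24) or DU145 PGK 2 (-2.24), and without DU145 ribavirin, LNCaP PGK 1, LNCaP EOS 1, LNCaP PGK 2 or LNCaP EOS 2 (-1.98 each). In DU145 KRT8 was not called without DU145 EOS 1 or DU145 EOS 2 (-1.71 each, limma adjusted p = 0.789 and 0.621), without LNCaP ribavirin (-1.98, 0.0586) or without the block (-1.98, 0.403). The lines differed in the number effect on KRT8 by 0.66 ± 0.25 (limma adjusted p = 0.291), and 0 keratins were called for that difference (0.943% of all genes), with KRT8 at an unadjusted p under 0.05 (14% of all genes).

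The partner KRT18 was called in neither line. Its number effect was -0.32 ± 0.14 in DU145 (limma adjusted p = 0.633) and -0.01 ± 0.14 in LNCaP. KRT10 was at 0.09 ± 0.15 and 0.32 ± 0.15, KRT7 at -1.39 ± 0.63 and -0.26 ± 0.63, KRT19 at -1.03 ± 0.35 and 0.05 ± 0.35, and KRT80 at -0.09 ± 0.37 and -0.46 ± 0.37 in DU145 and LNCaP. The KRT10 values hold for the probe set used. Its 2 other probe sets were lower in EOS 2 than in EOS 1 in each line. They were at 11.47 against 12.35 and 12.26 against 12.49 in DU145, and at 11.73 against 12.34 and 12.04 against 12.38 in LNCaP. From PGK 1 to PGK 2 both were lower in DU145 and higher in LNCaP. Number goes with the deposited scale and with the ACTB end ratio given above, 3.204 or more in every array of number 2 against at most 1.511 in number 1, and the GAPDH end ratio was 1.092 to 1.216 against 0.9585 to 1.06. Their part in the KRT8 values was not tested. Both ribavirin arrays are of EOS 2 cells, so the mean of EOS 1 and 2 mixes the numbers and the EOS 2 array does not.

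**Figure D4:**
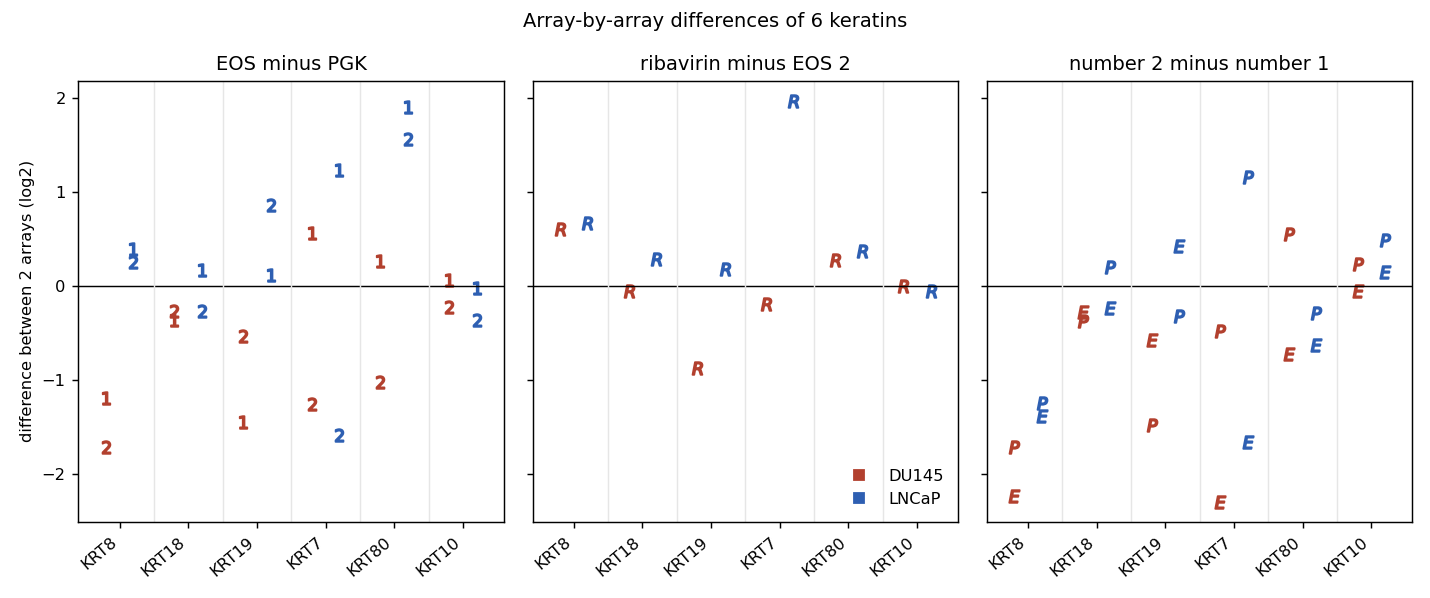
Differences between 2 arrays (log2, y axis) for 6 keratins in DU145 (red) and LNCaP (blue), where 1 and 2 mark the array number of an EOS minus PGK pair, R the ribavirin array minus EOS 2, and P and E the PGK and EOS pair of number 2 minus number 1. KRT8 is below 0 in all 4 number pairs, from -1.25 to -2.24, and in both DU145 EOS pairs, at -1.19 and -1.72. The plotted probe sets of KRT10 and KRT18 stay within 0.5 of 0.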

How the data were processed

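The authors deposited 1 linear intensity per probe set for each of 10 arrays. Per the submitters' processing notes MAS5 and affy were used, with no version or role. No source used here states the background correction or the target of any scaling. Arrays were rescaled to a common 2% trimmed mean of 500, and log2(intensity + 16) was taken. Of 54675 probe sets 62 were controls; 41091 others had 1 gene symbol, 1801 several and 11721 none, and 41037 matched a RefSeq gene by Entrez identifier, which changed no keratin's symbol. Probe sets above the array median in at least 2 arrays were kept, and the highest-mean probe set per gene gave 14313 genes.

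limma 3.58.1 in R 4.3.3 fitted 1 mean per group, with 4 residual degrees of freedom and an intensity trend in the moderation, with Benjamini-Hochberg adjustment over all genes at 0.05. The number comparison added array number within line as a term, leaving 2 residual degrees of freedom. Deviations of same-numbered PGK and EOS arrays correlated across genes, at 0.123 for DU145 and 0.484 for LNCaP; with only 2 pairs a line the numbers are not taken to pair the arrays, but they mark the deposited scales, so number was also fitted as a batch block. The code was tested on simulated data. The number of arrays limits the precision.

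Named keratins were those above the array median in all 5 arrays of a line, past the threshold in a comparison, or at an unadjusted p under 0.05 for EOS or ribavirin in a line. From each list of other genes up to 4 called between the lines and up to 2 in each EOS comparison were named by smallest p. KRT1, KRT5, KRT14, KRT15, KRT20, KRT24, KRT85, DSP and the desmogleins were named after their values were seen. The members and lists were chosen with earlier results of these data known.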

Additional observations from a re-analysis of the deposited data

How the results depend on the processing

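The alternatives were pseudocounts of 1 and 64, no filter on dim probe sets, unscaled values, quantile normalization and the mean of a gene's probe sets. Further ones were the replicate block, the number comparison without it, the line difference averaged over PGK and EOS cells, and each array left out. Of 339 values for single keratins under them, 315 kept their direction and their side of the threshold, 15 passed it, 2 lost it, and 7, none of them called, changed sign. KRT7 and KRT80 were called between the lines with each of the 10 arrays left out. The number of keratins called between the lines was 2 in the main fit, with 4730 of all 14313 genes called. It was 1, KRT7, on the unscaled values, with 57 genes called. It was 3 averaged over PGK and EOS cells, where KRT19 was added (1.38, limma adjusted p = 0.0109), with 6619 genes called. With the block it was also 3, where KRT8 was added, with 6343 genes called. For number 2 against 1 in DU145, where 0 were called, the count was 1, KRT8, with a pseudocount of 64 and with the mean of probe sets, and 0 to 1 with an array left out. In LNCaP it went from 1 to 0 without the block (KRT8 adjusted p = 0.149). On the unscaled values 12 keratins were called in DU145, 11 in LNCaP and 1 for the difference between the lines. Of all genes 13426, 13178 and 940 were called, and the median of all genes was itself at -1.93, -2.05 and -0.12. Unscaled, the median of all genes was -0.18 between the lines and -0.18 for EOS in DU145. For EOS and ribavirin the count stayed 0 under each alternative run. The replicate block changed 1 keratin's call, that of KRT8 between the lines (0.53, adjusted p = 0.0401), and no EOS or ribavirin call. In DU145 10 keratins were above the array median when 3 of 5 arrays sufficed, in place of 5.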
